A study of Mus musculus with 3 samples.

Results

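The BH3-only genes and the effector genes Bax and Bak1 encode the killing arm of the BCL2 family. The 10 genes described here were taken by name from the family's known membership, with no threshold on their values, by a choice made when earlier results of these data were known. They comprise 8 BH3-only genes (Bcl2l11, Bbc3, Pmaip1, Bad, Bid, Bmf, Bik and Hrk) and 2 effectors, out of 55214 genes measured. The samples were 3 separate cultures of Ba/F3, a mouse haematopoietic line that depends on interleukin-3 (IL-3). Every culture grew in RPMI medium with 0.2 ng/mL recombinant murine IL-3, 10% FCS (fetal calf serum) and penicillin-streptomycin, and their polyadenylated RNA was sequenced in strand-marked libraries. They form 1 group with no engineered allele named in the labels and no sample without IL-3. The values therefore describe the resting stock of these transcripts in fed cells, and no response to IL-3 loss was measured.

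In the mitochondrial route to apoptosis, BAX and BAK1 oligomerise in the outer mitochondrial membrane and let cytochrome c out. Anti-apoptotic relatives such as MCL1, BCL2 and BCL2L1 hold them in check, and BH3-only proteins either bind those guardians or engage the effectors directly, through a short helix called the BH3 domain. In IL-3-dependent cells, loss of the cytokine is known to raise BIM (Bcl2l11) and PUMA (Bbc3) through FOXO3 and to dephosphorylate BAD, while growth factor kinases keep these proteins low or bound in fed cells. BIM, PUMA and truncated BID can engage the effectors directly, and BAD, NOXA (Pmaip1), BMF, BIK and HRK act mainly by occupying the guardians.

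The BH3 stretch is shown first because it is the feature that joins the BH3-only genes with the effectors. In the longest complete GENCODE M21 coding model of each gene (GRCm38), a leucine codon followed, after 3 further codons, by a glycine, alanine or serine codon and then aspartate was searched for. The search also asked for isoleucine, leucine or methionine before the small residue and an acidic residue or glutamine after the aspartate. It gave exactly 1 match in each of the 9 genes printed here, beside 1.396% of 21782 coding genes that held any match, and none in the longest Pmaip1 model. A model without a match to these letters can still hold a BH3 domain. The genes are known for this domain, so the matches are a description and not a test. Each line gives 16 codons (48 bases) 5′ to 3′ on the coding strand, with the leucine codon and the 2 codons of the small residue and aspartate in capitals.
Bcl2l11: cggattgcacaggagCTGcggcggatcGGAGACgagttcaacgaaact
Bbc3: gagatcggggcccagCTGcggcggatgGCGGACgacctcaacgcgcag
Bmf: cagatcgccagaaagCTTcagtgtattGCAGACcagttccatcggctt
Bad: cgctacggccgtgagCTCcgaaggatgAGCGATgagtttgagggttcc
Bid: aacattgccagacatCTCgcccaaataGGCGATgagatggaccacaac
Bik: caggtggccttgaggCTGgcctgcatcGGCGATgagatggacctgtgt
Hrk: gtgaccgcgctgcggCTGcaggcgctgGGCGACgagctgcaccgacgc
Bax: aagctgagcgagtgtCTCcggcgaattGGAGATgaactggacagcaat
Bak1: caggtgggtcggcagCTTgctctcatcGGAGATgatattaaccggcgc
These stretches lie at chr2:128147135-128147182 for Bcl2l11, chr7:16313758-16313805 for Bbc3, chr2:118545094-118545141 for Bmf, chr19:6950777-6950824 for Bad, chr6:120897283-120897330 for Bid, chr15:83543069-83543116 for Bik, chr5:118169876-118169923 for Hrk, chr7:45465991-45466038 for Bax and chr17:27022525-27022572 for Bak1. Each lies within a single exon. The small residue was glycine in 6 genes, alanine in 2 (Bbc3 and Bmf) and serine in 1 (Bad). Over the 36 pairs of stretches, base identity ran from 41.7% to 64.6%. The closest pairs were Bik with Bak1, at 31 of 48 bases, and Bcl2l11 with Bbc3, at 29 of 48, while Bax and Bak1 shared 23.

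The reads counted to genes came to 32044889, 33880292 and 37180883 in cultures 1, 2 and 3. Levels are in CPM, the reads of a gene per 1000000 such reads of its culture. A gene was called detected at 1 CPM or more in all 3 cultures. A gene with no read lay below 0.0936, 0.0885 and 0.0807 CPM, the level of 3 reads in cultures 1, 2 and 3 (counting error only, since reads carried no molecular identifiers). The IL-3 receptor genes Il3ra, Csf2rb and Csf2rb2 were all detected. Of 8 early B lineage genes 2 were detected, and none of the 6 T and NK cell or 4 stromal genes. Of 5 macrophage genes 3 were detected (Cd68, Adgre1 and Csf1r) and of 4 endothelial genes 1 (Pecam1), while C1qa and Mrc1 had no read. In bulk RNA, fewer cells with a transcript and less RNA per cell cannot be told apart.

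Of the 10 genes 7 were detected and the other 3 had no read in any culture. Among all genes 19.9% were detected, and among the 21965 protein-coding genes 45.9%. Both effectors and 5 of 8 BH3-only genes were in the detected set. In CPM, which is not scaled for gene length, only Bak1, Bid and Bax lay above the median of detected genes, 39.7. Per kb of exon, 4 members lay above the median of detected genes, 8.64 CPM per kb, with Bbc3 (15.2) among them. The shares of detected genes given below for single members are in CPM. The level of every detected member in every culture is in the plot of CPM by culture.

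**Figure D1:**
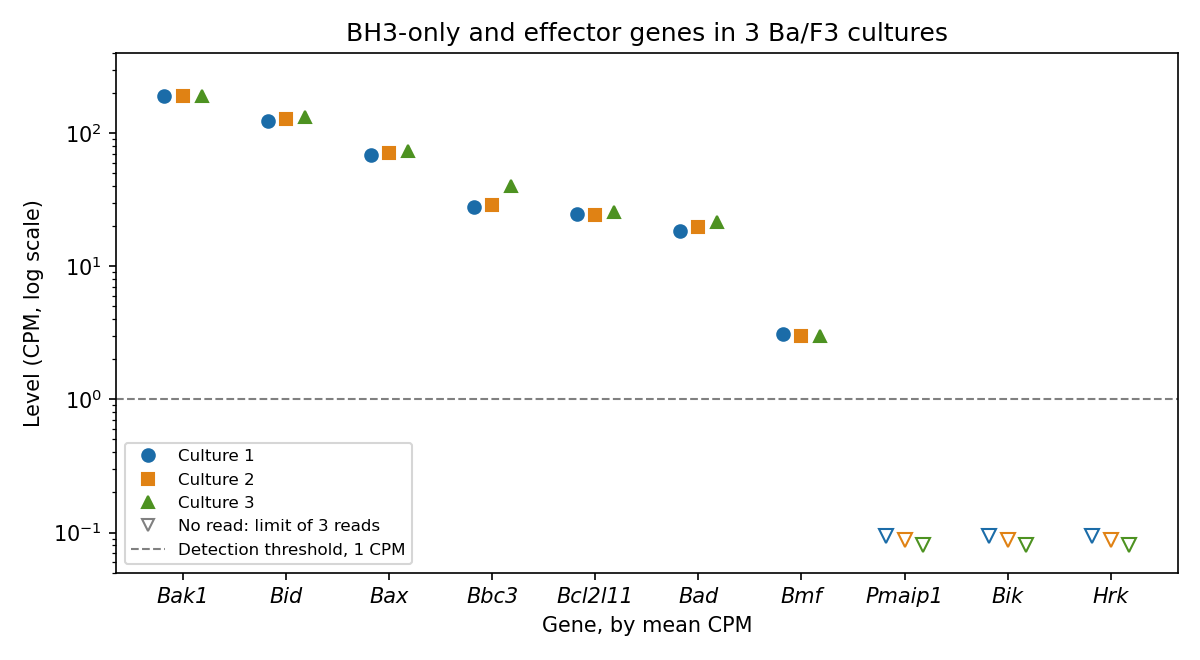
CPM (log axis) of each gene in cultures 1, 2 and 3, ordered by mean; open triangles mark genes without a read at the level of 3 reads, and the dashed line is the detection threshold of 1 CPM. The 3 cultures nearly coincide for Bak1, Bid, Bax, Bcl2l11, Bad and Bmf, culture 3 lies above the others for Bbc3, and Pmaip1, Bik and Hrk have no read.

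Bak1, which encodes the effector that sits in the outer mitochondrial membrane (ENSMUSG00000057789, chromosome 17, 27019810 to 27029009, minus strand), had the highest level of the 10 genes. Its level was 191.7, 189.5 and 188.8 CPM in cultures 1, 2 and 3, or 190.0 ± 1.52 (SD, n = 3), above 90.6% of detected genes. The cultures were almost equal, with the highest 1.02 times the lowest. Bax, which encodes the effector that moves from the cytosol to mitochondria (ENSMUSG00000003873, chromosome 7, 45461697 to 45466898, minus strand), had 68.9, 71.5 and 73.0 CPM (71.1 ± 2.09). It lay above 67.7% of detected genes. The protein-coding model Gm45808 overlaps Bax on the same strand and had no read. More than 1 gene entry named Ggnbp1 overlaps Bak1 on the other strand, and each had less than 1 CPM in every culture. Bok, the remaining effector-like gene of the family, had no read in any culture.

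Bid was the most abundant BH3-only transcript, with a wide margin in CPM. Per kb of union exon Bid was 2.37 times the next BH3-only gene, Bbc3, and that margin depended on the length model. Its protein is cut by caspase-8 to the active truncated form (ENSMUSG00000004446, chromosome 6, 120891930 to 120916853, minus strand). Bid levels were 123, 127 and 133 CPM (127.7 ± 4.91), with culture 3 highest. Its 3′ end overlaps the end of Bcl2l13 on the opposite strand (99.4 ± 2.44 CPM), and whether the counting used strand is not given in the sources used here, so a part of these reads is uncertain.

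Bbc3, the PUMA gene (ENSMUSG00000002083, chromosome 7, 16308393 to 16318205, plus strand), reached 27.7, 28.7 and 40.2 CPM (32.2 ± 6.92). Cultures 1 and 2 were alike and culture 3 was apart. Bcl2l11, the BIM gene (ENSMUSG00000027381, chromosome 2, 128126038 to 128162547, plus strand), measured 24.9, 24.4 and 25.7 CPM (25.0 ± 0.688) and lay above 36.9% of detected genes. Its cultures differed by no more than 1.06 times. The gene that is most studied as the trigger of death at IL-3 loss was thus expressed in fed cultures, at a level below the median of detected genes.

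Bad, whose protein is held by 14-3-3 proteins when phosphorylated (ENSMUSG00000024959, chromosome 19, 6941861 to 6951899, plus strand), reached 18.3, 19.9 and 21.5 CPM (19.9 ± 1.57). Its 5′ end overlaps Gpr137 on the opposite strand, which had 34.8, 31.8 and 32.8 CPM, more than Bad in each culture. Since the use of strand in the counting is not given, a part of the Bad reads is uncertain too. Bmf, whose protein binds the dynein light chain DYNLL2 (ENSMUSG00000040093, chromosome 2, 118528757 to 118549687, minus strand), was the lowest detected member. It had 100, 102 and 111 reads, or 3.12, 3.01 and 2.99 CPM (3.04 ± 0.0719), and would not count as detected at 5 CPM.

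Pmaip1, the NOXA gene (ENSMUSG00000024521, chromosome 18, 66458533 to 66465565, plus strand), Bik (ENSMUSG00000016758, chromosome 15, 83526862 to 83544634, plus strand) and Hrk (ENSMUSG00000046607, chromosome 5, 118164648 to 118189478, plus strand) had no read. The 3 cultures together held 103106064 reads counted to genes. A lack of reads is common in the table: 34.7% of protein-coding genes had none. Bik lies 2163 bases from Mcat, at 17.9, 17.6 and 19.1 CPM, and 15969 bases from Ttll1, at 19.9, 19.7 and 18.3. Hrk lies 9184 bases from Fbxw8, at 112, 115 and 123 CPM, and 1258 bases from Rnft2, at 1.19, 0.826 and 0.565. Bik thus lacked reads between 2 detected genes, and Hrk lay beside 1 detected gene, Fbxw8, since Rnft2 missed the detection threshold. The coding genes nearest to Pmaip1, Ccbe1 and Mc4r, each more than 100 kb away, had no read either.

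Levels of different genes were compared per length, as CPM per kb of union exon. On this scale the order was Bak1 (78.9 ± 0.631), Bax (45.1 ± 1.33), Bid (36.0 ± 1.38), Bbc3 (15.2 ± 3.26), Bad (7.77 ± 0.615), Bcl2l11 (3.11 ± 0.0857) and Bmf (0.579 ± 0.0137). No neighbours in this order overlapped: every culture of the higher gene lay above every culture of the next. The closest neighbours were Bax and Bid, whose means stood 1.26 times apart, and the widest step was from Bcl2l11 to Bmf, at 5.38 times. With 3 values against 3 the smallest exact permutation p is 0.1 (two-sided), so no test of the order was made. With the median length of coding transcripts in place of union exons Bid came before Bax, and the other ranks stayed.

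Bid was the largest part of the BH3-only sum. It made up 59.2%, 59.0% and 54.6% of the summed BH3-only level (CPM per kb) in cultures 1, 2 and 3, or 57.6 ± 2.58%. Bbc3 followed with 22.3%, 22.2% and 27.6%, Bad with 12.4 ± 0.325%, Bcl2l11 with 4.99 ± 0.304% and Bmf with 0.930 ± 0.0930%. With the median coding transcript length the mean shares were 48.5% for Bid and 34.0% for Bbc3, so whether Bid made up the majority depended on the length model. Per length, Bid was 11.6 ± 0.317 times Bcl2l11, and Bbc3 was 4.22, 4.44 and 5.90 times Bcl2l11. The ratio of Bbc3 to Bcl2l11 was highest in culture 3, the library in which Bbc3 stood apart.

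**Figure D2:**
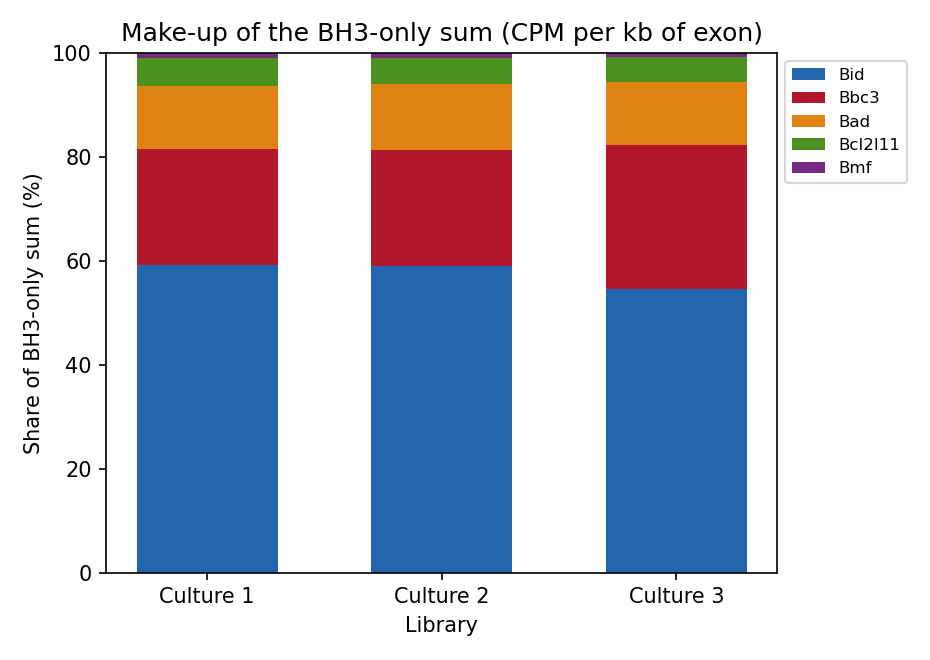
Share of each BH3-only gene in the summed level of the BH3-only genes (CPM per kb of exon, percent) in cultures 1, 2 and 3; genes without a read add nothing. Bid takes 59.2%, 59.0% and 54.6%, and the Bbc3 share is larger in culture 3 (27.6%) than in cultures 1 and 2 (22.3% and 22.2%).

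The effectors were set against each other and against the guardians within each culture. Bax was 0.549, 0.577 and 0.590 times Bak1 per length, a ratio of 0.572 ± 0.0213, and Bak1 was the higher gene in 3 of 3 cultures. The summed BH3-only level was 58.6, 60.7 and 68.5 CPM per kb and the summed effector level 123, 124 and 125. The 8 anti-apoptotic genes summed to 213, 209 and 206 CPM per kb. BH3-only genes thus reached 0.275, 0.291 and 0.333 of the anti-apoptotic sum, a mean ratio of 0.2997 ± 0.02998, with culture 3 highest, and 0.540 with the median coding transcript length. With the effectors added the ratio was 0.855, 0.886 and 0.940, a mean of 0.894 ± 0.0432. This last ratio passes 1 with other length models, 1.01 with the longest transcript and 1.11 with the median coding transcript, so the larger side depended on the length model.

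**Figure D3:**
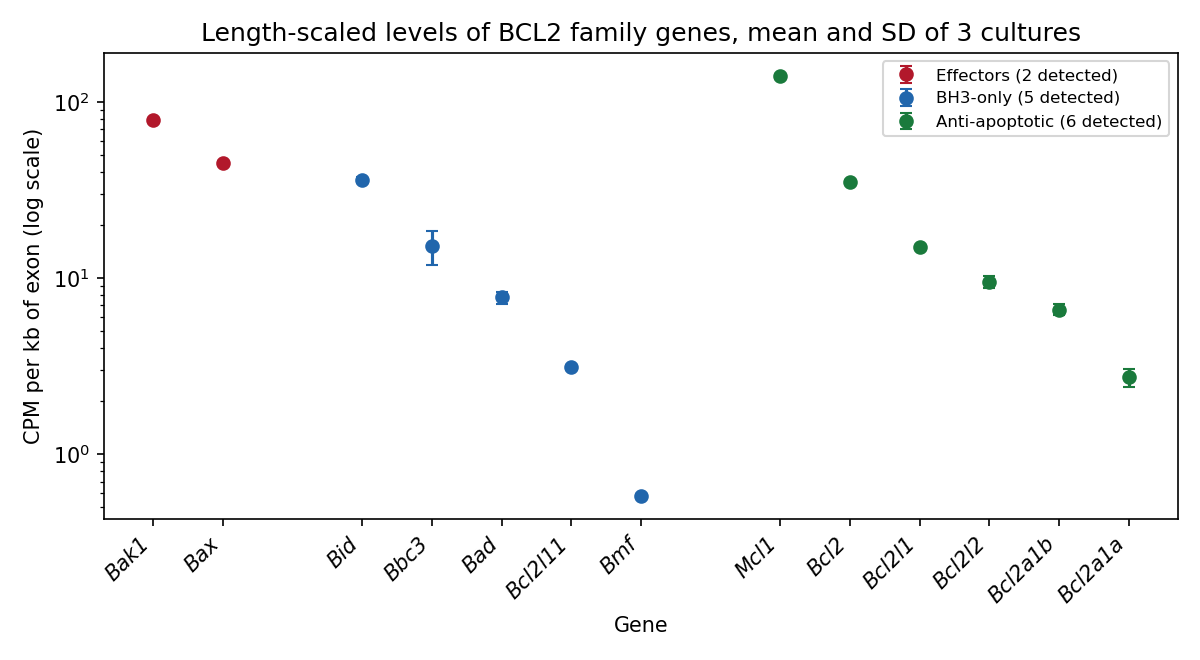
CPM per kb of union exon (log axis), mean and SD of 3 cultures, for the detected effectors, BH3-only genes and anti-apoptotic genes. Mcl1 (140 CPM per kb) stands above all members, Bak1 is the highest member at 78.9, and Bmf is the lowest at 0.579.

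Of the anti-apoptotic list 6 of 8 genes were detected. Mcl1, the guardian that binds BIM, PUMA, NOXA and BAK1, led with 139.8 ± 4.05 CPM per kb, and Bcl2 followed with 35.3 ± 0.538. Mcl1 was 46.5, 45.8 and 42.5 times Bcl2l11 per length, a mean of 44.9, which was 28.2 with the longest transcript and 22.3 with the median coding transcript. Bcl2l10 had no read and Bcl2a1d averaged 0.0595 CPM, and since the Bcl2a1 genes are near-identical copies the split of reads among them is uncertain. Among other BCL2 relatives 3 of 5 were detected, with Bcl2l13 (10.9 ± 0.268 CPM per kb) and Bcl2l12 (5.37 ± 0.551) highest, Bok without a read and Bcl2l15 at 0.0598 CPM. All 6 atypical BH3 genes were detected. Bnip3 (384 ± 11.3 CPM per kb) and Bnip3l (77.9 ± 2.59), both mitophagy receptors, led them, and Bnip3 stood above every member.

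Among genes of mitochondrial partners and released factors, 9 of 10 were detected. The channel genes Vdac1 (160.7 ± 2.88 CPM per kb) and Vdac2 (43.0 ± 1.11) led. VDAC2 is the outer membrane partner of BAK1, and Endog, a released nuclease gene, had no read. All 9 apoptosome and caspase genes were detected, among them Casp8 (28.6 ± 0.972 CPM per kb), whose protease cuts BID.

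Chi-square tests of Poisson heterogeneity, adjusted by Benjamini-Hochberg over the 13142 genes with a mean of at least 10 reads, asked whether the cultures differed beyond counting noise. Of the 7 members tested, 3 were called at 0.05: Bbc3, Bid and Bad. Among all genes tested 32.7% were called, and among detected genes 37.1%, so the number called is not a result about these genes. The test compares 1 library per culture and no conditions. With a variance that also allows a common spread between cultures (negative binomial, coefficient of variation 7.30%), 3.49% of genes were called and Bbc3 was the only member. Of the 7 members tested 3 were called with culture 3 highest, beside 10.2% of tested genes, and of the 4304 called genes 31.0% were highest in culture 3. Of the 7 detected members 1, Bbc3, was called with a highest level at least 1.4 times the lowest, beside 5.86% of detected genes.

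Bbc3 was the member that differed most. Its 889, 971 and 1493 reads gave a highest level 1.45 times the lowest, beside a median of 1.09 over detected genes, and 93.9% of detected genes had a smaller ratio. The chi-square test gave an adjusted p of 6.0e-22 and the negative binomial variance 0.0235, with culture 3 above both other cultures. Without culture 3 the chi-square call ended (adjusted p = 0.707). Without that culture 0 members were called by the chi-square test or the negative binomial variance, and 0 had an unadjusted p under 0.05 by either. Its culture 3 value also rests on matching rows by gene, and all members lie below the 300 CPM at which the matching could be told from the rows as deposited: on the row as deposited it would be 32.4 CPM, and the adjusted p 0.00415.

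**Figure D4:**
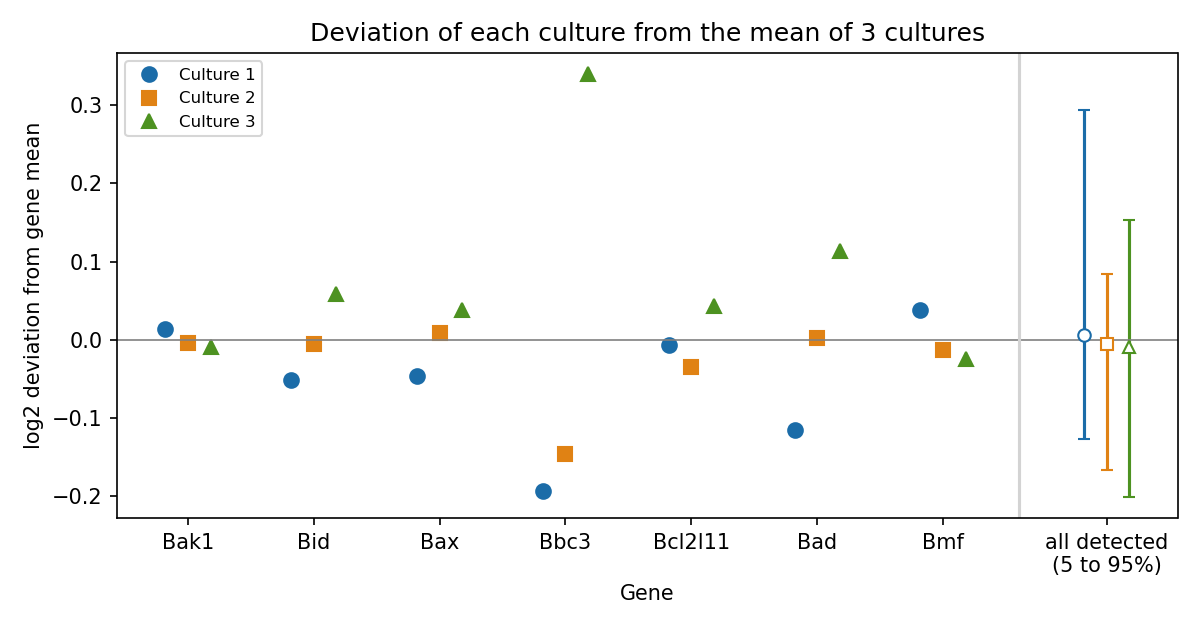
log2 deviation of each culture from the mean over the 3 cultures for the 7 detected members, beside the median and the 5 to 95% range over all detected genes (open symbols). Bbc3 in culture 3 lies at 0.34, outside the range of detected genes for that culture, while Bak1, Bax, Bcl2l11 and Bmf stay within 0.05 of their means.

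Culture 3 also differed from the others by base composition, and these values stand beside the Bbc3 result. The longest Bbc3 transcript has 65.2% GC, in the highest decile of detected genes. The median log2 ratio of culture 3 to cultures 1 and 2 averaged was 0.10 in that decile and -0.050 in the lowest. The ratio of Bbc3 was 0.51, above 97.5% of the genes in its decile, and that of Bax, in the same decile, was 0.056. With a factor for GC content in each culture, chosen after the data were seen, the highest Bbc3 level was 1.35 times the lowest in place of 1.45 and the chi-square test gave an adjusted p of 1.7e-13. With that factor and the negative binomial variance together the Bbc3 call ended (adjusted p = 0.221), and 0 members were called. In that fit 1 member, Bbc3, had an unadjusted p under 0.05. The part of GC content in the Bbc3 difference was not tested beyond these fits. Mitochondrial genes took 1.68%, 1.31% and 1.04% of the reads counted to genes in cultures 1, 2 and 3. The part of that difference in the Bbc3 result was not tested.

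**Figure D5:**
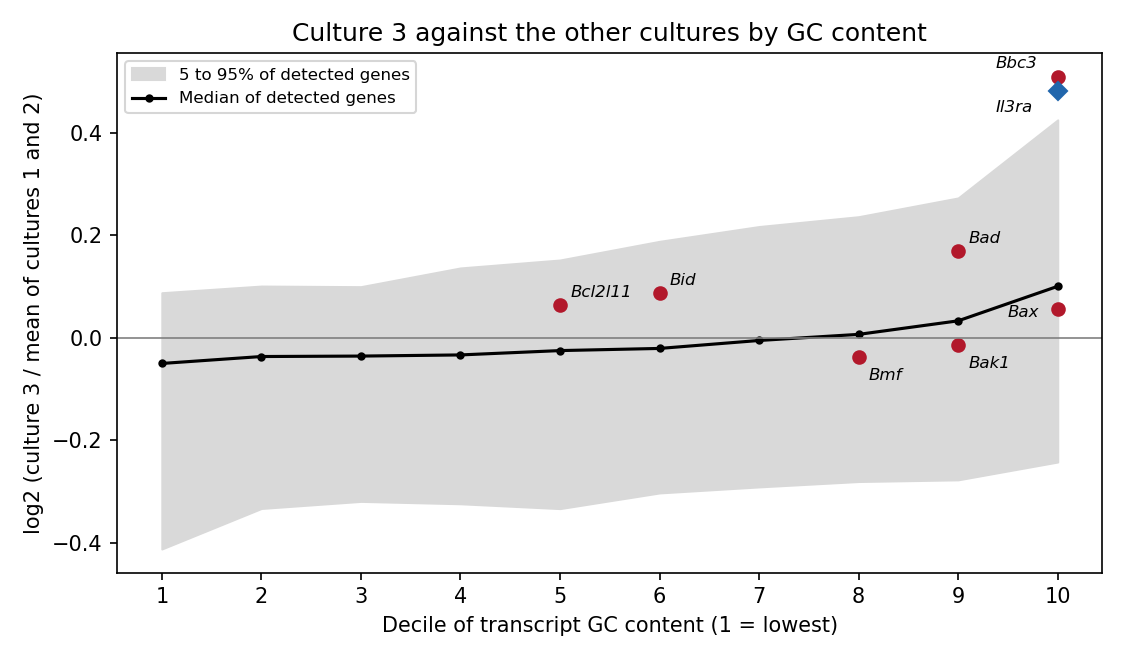
log2 ratio of culture 3 to the mean of cultures 1 and 2 by decile of transcript GC content, with the median (line) and 5 to 95% range (grey) of detected genes; members are circles and Il3ra is a diamond. Bbc3 (0.51) and Il3ra (0.48) lie above the range in the highest decile, and the other members lie within the range of their decile.

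Among 8827 genes at a mean level of 10 CPM or more, the 3 whose deviations over the 3 cultures were closest to Bbc3 were Abhd17a, Nfkbib and Ier2. Abhd17a stood at 21.9, 22.8 and 32.4 CPM, Nfkbib at 12.5, 13.2 and 17.99, and Ier2 at 129, 132 and 180. Their summed squared log2 differences from Bbc3 were 6.1e-04, 7.8e-04 and 0.00193. Il3ra, the IL-3 receptor α chain gene, which that rule did not name, also stood highest in culture 3, at 28.2, 27.3 and 38.7 CPM. The receptor genes Csf2rb (741, 725 and 698 CPM) and Csf2rb2 (696, 676 and 654) went the other way and were lowest in culture 3. With 3 cultures such likeness to Bbc3 is a description only.

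Bid and Bad differed by small amounts. The highest Bid level was 1.08 times the lowest (chi-square test, adjusted p = 0.00638), and that of Bad 1.17 times (adjusted p = 0.0439), each with culture 3 highest. Neither was called with the negative binomial variance. The chi-square call of Bid ended without culture 1 (adjusted p = 0.175) or culture 3 (0.350) and on rows as deposited (0.0991), and that of Bad likewise (0.409, 0.358 and 0.0951). The Bad call also ended with the GC factor (chi-square test, adjusted p = 0.0969) and with no minimum of reads (0.0751). On rows as deposited culture 3 would be the lowest for Bad (17.2 CPM) and for Bax (65.9 CPM). Bax (adjusted p = 0.245), Bcl2l11 (0.656), Bak1 (0.778) and Bmf (0.966) were not called by the chi-square test. Bax was called with trimmed mean of M values scaling (chi-square test over all genes, adjusted p = 0.0456).

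Genes known to control the transcripts of these members were detected for 13 of 15. Myc (145 ± 3.56 CPM per kb) and Atf4 (57.5 ± 2.34) were highest, Foxo1 had no read and Trp73 averaged 0.173 CPM. Foxo3, whose protein activates Bcl2l11 and Bbc3 when AKT is inactive, stood at 189, 204 and 213 CPM. Trp53, the activator of Bbc3, Pmaip1 and Bax, stood at 112, 104 and 103 CPM. Its known target Pmaip1 had no read in these libraries while Bbc3 and Bax were expressed. Morrbid, a noncoding RNA that represses Bcl2l11 in short-lived myeloid cells, lies 15772 bases beyond the Bcl2l11 end on the opposite strand and stood at 5.34, 4.60 and 4.41 CPM.

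Genes that act on the member proteins were detected for 19 of 20. The kinase genes Pim1 (335 ± 21.4 CPM per kb) and Pim2 (108.9 ± 2.62) were highest, and PIM kinases phosphorylate BAD. Pim3 was not detected, at 0.642 CPM. The dynein light chain genes Dynll1 (67.7 ± 2.42 CPM) and Dynll2 (135.1 ± 3.20), whose products bind BIM and BMF, were both detected. Of the 73 genes in these 7 lists 65 were detected, beside 45.9% of protein-coding genes. The chi-square test called 38 of these 65, beside 37.1% of detected genes. That test finds smaller differences in genes with more reads, and the lists were not matched to other genes by reads. The lists were chosen with earlier results known, so these counts are descriptions.

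Mir17hg, the host gene of the miR-17-92 cluster, differed most among the listed regulators, and the cluster's miRNAs are known repressors of Bcl2l11. Mir17hg stood at 20.3, 9.15 and 8.50 CPM, with culture 1 far above the others (highest to lowest 2.39 times, chi-square test, adjusted p = 3.2e-50). Bcl2l11 stood at 24.9, 24.4 and 25.7 CPM in the same cultures. Mature miRNAs were not measured. The mature sequences are shown (RefSeq, GRCm38.p6, chromosome 14, plus strand), with the seed, bases 2 to 8, in capitals.
miR-17-5p: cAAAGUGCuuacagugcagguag
miR-20a-5p: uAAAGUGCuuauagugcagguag
miR-18a-5p: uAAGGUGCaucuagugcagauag
miR-19a-3p: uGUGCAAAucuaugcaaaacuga
miR-19b-3p: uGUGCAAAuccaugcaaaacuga
miR-92a-3p: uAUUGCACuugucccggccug
The first pair share a seed, as do miR-19a-3p and miR-19b-3p, so 6 miRNAs have 4 seeds. In the longest stretch after the stop codon of a complete Bcl2l11 model, 4218 bases, 5 places complement 3 of these seeds. They are GCACTTT for miR-17-5p and miR-20a-5p, TTTGCAC for miR-19 and GTGCAAT for miR-92a-3p, searched on the transcript strand. They are shown in capitals with their flanks, by the distance after the stop codon (GRCm38, plus strand).
base 1449, chr2:128159770-128159792: gtggaggaGCACTTTctaacctg
base 2123, chr2:128160444-128160466: cgactggaGCACTTTactgtctc
base 4078, chr2:128162399-128162421: ctttacgtTTTGCACtgatgaat
base 2845, chr2:128161166-128161188: atgtctctGTGCAATtgtgttcc
base 4120, chr2:128162441-128162463: ctgtacctGTGCAATactgctgt
Among 1238 genes with at least as long a stretch after the stop codon, 32.6% held GCACTTT in the same length, 30.6% TTTGCAC and 18.3% GTGCAAT. The match to miR-18a-5p, GCACCTT, was not in this stretch and was in 21.1% of such genes. Bmf had 2 places for these seeds, Bad, Bid, Hrk and Bak1 had 1 each, and Bbc3, Pmaip1, Bik and Bax had none, over stretches of 224 to 5068 bases. A match is a description of letters and not a measured site.

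Promoter windows (250 bases before to 50 after a start, RefSeq, GRCm38.p6) were found for 8 of the 10 genes, with 14 windows in all. FOXO proteins bind the letters GTAAACA, which were searched on both strands. They were in 1 of 2 Bcl2l11 windows, in 1 of 3 Bbc3 windows and in no window of the other members. Among all 32851 windows of that length, 3.65% held them. In Bcl2l11 the match begins 227 bases before the start and reads on the gene's strand, and in Bbc3 it begins 167 bases before the second of 3 annotated starts and reads on the other strand. Both windows are shown because these genes are the known FOXO3 targets of the group, with the match in capitals.
Bcl2l11, chr2:128125788-128126087, plus strand: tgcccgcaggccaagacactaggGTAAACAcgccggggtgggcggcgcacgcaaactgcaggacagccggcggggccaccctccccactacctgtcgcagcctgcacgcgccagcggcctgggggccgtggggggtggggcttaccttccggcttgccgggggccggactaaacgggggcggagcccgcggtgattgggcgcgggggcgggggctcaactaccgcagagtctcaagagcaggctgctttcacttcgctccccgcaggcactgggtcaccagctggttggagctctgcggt
Bbc3, chr7:16310011-16310310, plus strand: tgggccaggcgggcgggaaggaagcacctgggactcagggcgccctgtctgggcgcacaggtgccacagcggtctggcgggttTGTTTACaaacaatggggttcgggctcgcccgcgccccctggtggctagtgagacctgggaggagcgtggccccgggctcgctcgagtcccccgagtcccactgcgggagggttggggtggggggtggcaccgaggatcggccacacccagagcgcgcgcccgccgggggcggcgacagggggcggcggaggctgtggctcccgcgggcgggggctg
The p53 decamer consensus, its own reverse complement, was in the Bax window and 1 of 3 Bmf windows and in 8.36% of all windows. The E-box CACGTG was present at 2 places in the Bax window and 1 in the third Bbc3 window, beside 7.15% of windows. The second and the third Bbc3 windows overlap. TATAAA (13.6% of windows) and the E2F letters TTTCGCGC (0.323%) were in none of the 14.

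Of the 14 windows 13 held more than 7 CpG pairs, the median over all windows. Of the 3 unread genes only Hrk had a window among these, and Pmaip1 and Bik had none. The contrast is shown for the highest detected member and an unread one. The Bak1 window held 11 CpG pairs and 58.3% GC, and the Hrk window 29 CpG pairs, more than 87.1% of windows, and 65.7% GC. The unread gene thus had the denser window of this pair. CpG pairs are in capitals.
Bak1, chr17:27028578-27028877, minus strand: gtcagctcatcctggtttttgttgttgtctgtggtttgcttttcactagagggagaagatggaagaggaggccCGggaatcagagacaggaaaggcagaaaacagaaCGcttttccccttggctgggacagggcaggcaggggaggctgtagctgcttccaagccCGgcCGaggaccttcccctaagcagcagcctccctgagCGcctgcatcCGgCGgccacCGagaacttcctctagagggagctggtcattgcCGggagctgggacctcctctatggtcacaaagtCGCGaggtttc
Hrk, chr5:118169514-118169813, plus strand: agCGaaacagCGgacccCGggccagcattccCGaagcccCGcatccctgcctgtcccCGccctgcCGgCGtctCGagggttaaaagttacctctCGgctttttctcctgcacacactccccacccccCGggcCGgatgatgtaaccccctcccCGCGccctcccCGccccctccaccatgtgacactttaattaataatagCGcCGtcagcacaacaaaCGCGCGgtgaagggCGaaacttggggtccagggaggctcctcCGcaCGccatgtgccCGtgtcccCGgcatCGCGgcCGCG
The Bbc3 windows held 34, 30 and 39 CpG pairs and the Bcl2l11 windows 27 and 38. The Bad windows held 27 and 21, the Bid window 22, the Bax window 19 and the Bmf windows 8, 13 and 6. The Hrk count thus lay within the range of the detected members. No methylation was measured.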

How the data were processed

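Polyadenylated RNA of 3 Ba/F3 cultures was read as 50-base single-end reads. The authors aligned the reads with HISAT2 to GRCm38 and counted them with GenSum, per the series' design text and the submitters' processing notes. No tool version, annotation release or strand setting is given in the sources used here. Values were deposited on a log2 scale, as reads per 10000000 with 1 added before the log. Undoing the log gave whole reads for 100% of values (tolerance 0.01). In 0 of 23001 rows with reads do identifier and symbol agree: cultures 1 and 2 follow the identifier and culture 3 the symbol and coordinates. Culture 3 was joined through GENCODE M21 by coordinates (54916 rows) or by a symbol (345 rows), and 225 rows had no match. At 300 CPM or more (550 genes), culture 3 then differed from cultures 1 and 2 by a median of 0.049 (log2), beside 0.154 on rows as deposited and 0.051 between cultures 1 and 2. At 10 CPM or more, rows as deposited gave 0.053 and joined rows 0.060, beside 0.062 between cultures 1 and 2; the table is sorted by the authors' average, so neighbouring levels share a row there.

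The GC factor (alone and with the negative binomial variance, at the same dispersion), the motifs, the ratio threshold of 1.4 and the sequences shown were chosen after the data were seen. The chi-square test was tested on simulated data; Python 3.11.15, SciPy 1.17.1, NumPy 2.4.6 and pandas 2.3.3 were used. Negative binomial variance used a common dispersion of 0.00533 fitted by a Cox-Reid adjusted likelihood. The members, the lists and the rule for named genes were chosen with earlier results of these data known. The rule named all members, the 2 detected genes of highest CPM per kb and up to 3 undetected genes of each list, coding neighbours of unread members, overlapping genes, and the 3 genes closest to the most variable called member; 1 gene that it names is not reported here. Foxo3, Trp53, Morrbid, Mir17hg, Dynll1, Dynll2 and Il3ra were named after their values were seen. Morrbid is annotated as Gm14005 in GENCODE M21 and was matched by coordinates; of 2 genes called Ddit3 the one with more reads was used. Alternatives changed thresholds, scaling, lengths, pseudocounts (1 CPM, or 0.1 and 5) and the cultures used.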

Additional observations from a re-analysis of the deposited data

How the results depend on the processing

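The 7 detected members stayed 7 at 0.5 CPM, in at least 1 culture, with other scalings, with TPM of at least 1 and without each culture, and were 6 at 5 CPM. The 3 members called by the chi-square test became 1 (of 459 genes in all, beside 4304) with the negative binomial variance and 1 on rows as deposited, and ranged from 0 to 3 without each culture in turn (0 without culture 3, 1 without culture 1), while calls over all genes ranged from 1460 to 3900. With no minimum of reads 2 members were called. With the GC factor and the negative binomial variance together 0 members and 422 genes were called. Bax to Bak1 was 0.813 with the longest transcript length and 0.769 with the median coding length. BH3-only to anti-apoptotic was 0.385 and 0.540, and with the effectors added 1.01 and 1.11. With the median coding length the Bid share was 48.5%. The cause of the lost calls was not tested. Without each culture these 3 ratios ranged from 0.563 to 0.584, 0.283 to 0.312 and 0.870 to 0.913. Bmf, with 100 to 111 reads, limits what could be seen of its spread. No paired analysis was possible because the samples form a single group.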
